A study of Mus musculus with 16 samples.

Results

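*Olig1*, *Olig2*, *Sox10*, *Pdgfra*, *Cspg4*, *Mbp*, *Cnp*, *Gpm6a* and *Gpm6b* are genes of the oligodendrocyte lineage, or of the proteolipid family, and they were followed here in neural stem and progenitor cells (NSPCs) that carried a *Dbx2* transgene. The 9 genes were taken by symbol from the 30386 genes of the expression table. Each had 1 entry there, and 7 of the 9 passed the filter for testing, which asked for over 1 CPM (reads of a gene scaled to the sample's total) in 4 or more of the 16 samples. *Sox10* and *Mbp* did not pass it. The genes had been chosen with earlier results of these data in view.

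The samples were 8 RNA preparations of *GFP*-NSPCs, which carry a control *GFP* transgene, and 8 of *Dbx2*-NSPCs, which express *Dbx2* constitutively. Both were derived from the subventricular zone (SVZ) of C57BL/6 J/Babr mice aged 3 months and were grown in non-adherent proliferative culture. All cells of both groups had been nucleofected with a plasmid (*pTP6-hrGFP* or *pTP6-Dbx2*), selected and kept in puromycin, and cultured with EGF, FGF2, B27 and heparin. The lines were cultured in bulk and came from a pair of independent SVZ derivations. The labels number the samples of each group from 1 to 8 without naming the line, so the samples numbered 1 to 4 and those numbered 5 to 8 are described below as sets of numbers, and no line was assigned to them. The labels call the samples biological replicates without saying which culture each came from, so that p-values measure the spread between these samples. Per the paper, each derivation gave a *GFP* line and a *Dbx2* line, with 4 independent experiments for each such pair. Each group of 8 samples thus holds repeat cultures of only a pair of lines, and these do not replicate the transgene. Effects of the transgene and other differences between the lines cannot be told apart.

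In the adult SVZ, oligodendrocytes arise from a minority of progenitors. *Olig2* and *Olig1*, neighbouring genes of basic helix-loop-helix transcription factors, act early, and Sox10 then drives the expression of myelin genes. Committed oligodendrocyte progenitors carry PDGF receptor alpha (*Pdgfra*) and the proteoglycan NG2 (*Cspg4*), whereas *Cnp* (an enzyme of the myelin cytoplasm) and *Mbp* (the myelin basic protein) mark later stages. *Gpm6a* and *Gpm6b* encode 4-pass membrane glycoproteins and are paralogs. *Gpm6a* is best known for its part in neurite and filopodium growth, and *Gpm6b* is made by neural progenitors, neurons and glia. *Olig2* and *Olig1* are also expressed by cultured NSPCs that are expanded with growth factors, so that their RNA alone does not mark a committed oligodendrocyte progenitor.

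The promoter sequences of the 3 genes that changed with the transgene are shown first, because Dbx2 is a homeodomain protein and many proteins of that class bind DNA around an ATTA core. Each sequence is the 250 bases before a start listed by RefSeq on GRCm38.p6, on the plus strand, and capitals mark ATTA or its reverse complement TAAT. Windows of 6 of the 9 genes were examined, and *Gpm6a* had 2 listed starts.
*Gpm6a*, distal start, chr8:54779184-54779433: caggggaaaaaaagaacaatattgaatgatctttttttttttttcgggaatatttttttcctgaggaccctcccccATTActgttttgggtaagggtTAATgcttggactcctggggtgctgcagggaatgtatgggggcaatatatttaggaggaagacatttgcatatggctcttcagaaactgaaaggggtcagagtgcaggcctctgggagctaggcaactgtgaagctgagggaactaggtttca
*Gpm6a*, proximal start, chr8:54954478-54954727: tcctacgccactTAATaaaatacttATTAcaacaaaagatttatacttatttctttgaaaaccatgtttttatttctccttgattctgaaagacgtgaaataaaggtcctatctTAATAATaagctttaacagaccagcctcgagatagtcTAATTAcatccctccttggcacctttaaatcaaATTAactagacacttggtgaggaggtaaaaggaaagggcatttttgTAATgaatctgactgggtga
*Gpm6b*, chrX:166238693-166238942: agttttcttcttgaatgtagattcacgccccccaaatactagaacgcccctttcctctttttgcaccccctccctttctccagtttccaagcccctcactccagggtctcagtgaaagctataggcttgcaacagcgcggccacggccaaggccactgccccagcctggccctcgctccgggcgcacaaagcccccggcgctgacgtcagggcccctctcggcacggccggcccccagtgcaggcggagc
*Cnp*, chr11:100574689-100574938: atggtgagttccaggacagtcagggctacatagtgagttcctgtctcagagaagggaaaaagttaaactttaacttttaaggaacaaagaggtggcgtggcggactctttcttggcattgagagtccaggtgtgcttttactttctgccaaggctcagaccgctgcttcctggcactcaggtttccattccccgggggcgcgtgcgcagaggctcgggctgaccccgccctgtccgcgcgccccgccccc
ATTA was searched on both strands with overlaps counted, and so was the palindrome TAATTA, which holds 2 overlapping ATTA matches. The proximal *Gpm6a* promoter held 8 ATTA matches and 1 TAATTA, with a GC content of 33.6%. The distal one held 2 ATTA matches and 0 TAATTA. The *Gpm6b* and *Cnp* windows held 0 of either, with GC contents of 63.2% and 57.2%. Of the examined genes that were not called, *Olig2* had 1 ATTA match and *Pdgfra* and *Cspg4* had 0, all with 0 TAATTA. Among all 32851 promoters of the same length, 54.9% held ATTA, with a median of 1 match, and 4.84% held TAATTA. These matches describe the letters of the windows and are not binding sites.

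Sequencing depth was modest. Reads on genes numbered 1803928 to 3293285 per sample, so that 1 read equalled 0.30 to 0.55 CPM. The floor of detection was set at 3 reads, or 0.911 to 1.66 CPM, and it allows for counting error alone, because without molecular identifiers reads can be copies of one another. *Dbx2* itself, on which the labels rest, was raised by 1.26 on the log2 scale (SE 0.317, limma adjusted p = 0.00978). In numbers 1 to 4 it ran from 89.3 to 171 CPM without and from 136 to 232 CPM with the transgene, and the groups overlapped (log2 fold change 0.54, limma adjusted p = 0.0891), whereas in numbers 5 to 8 the ranges were 30.7 to 39.5 and 114 to 155 CPM. Results for the 9 genes are therefore given within both sets as well. The *Dbx2* values do not tell RNA of the transgene from that of the cells' own *Dbx2* gene, which *GFP*-NSPCs also express. The NSPC markers *Nes*, *Sox2*, *Vim* and *Fabp7* were present in all 16 samples, *Vim* at 1900 to 3170 CPM. Another NSPC marker, *Prom1*, was at 0 in 14 samples and reached at most 0.65 CPM.

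Over all 16 samples, 3 of the 7 tested genes changed with the transgene. *Gpm6a* and *Gpm6b* were lower in *Dbx2*-NSPCs and *Cnp* was higher. Among all 12533 tested genes, 15.8% passed the same threshold (a limma adjusted p under 0.05), 8.03% higher and 7.78% lower. The same 3 genes passed in the same directions in the samples numbered 1 to 4 alone, where 15.6% of all genes passed (8.19% higher and 7.37% lower), and in those numbered 5 to 8 alone, where 23.2% passed (11.5% higher and 11.7% lower). Of all tested genes, 3.1% were called lower in both sets and 3.39% higher in both. *Olig1*, *Olig2*, *Cspg4* and *Pdgfra* passed in none of these comparisons. Separation without overlap was more frequent than calls in numbers 1 to 4. There *Gpm6a*, *Gpm6b*, *Olig1* and *Olig2* were lower in every *Dbx2*-NSPC sample (10% of all tested genes were) and *Cnp* and *Cspg4* higher (9.53% were), whereas in numbers 5 to 8 this held for *Gpm6a* and *Gpm6b* (lower, 12.6% of all genes) and *Cnp* (higher, 12.2%).

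**Figure D1:**
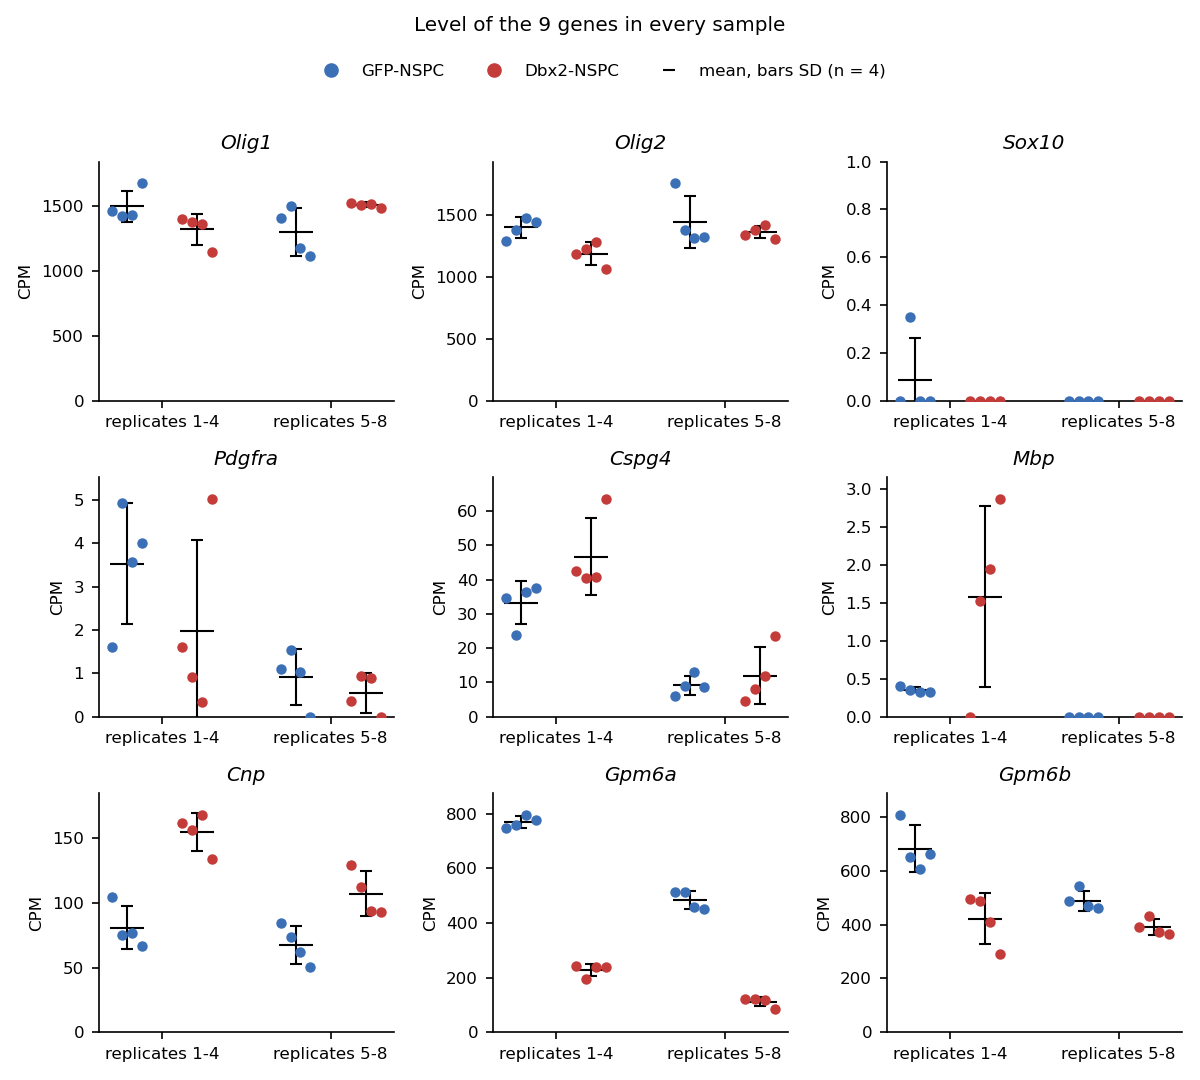
Level in CPM (vertical axis, linear from 0) of each of the 9 genes in every sample, in replicates 1 to 4 and 5 to 8 of *GFP*-NSPCs (blue) and *Dbx2*-NSPCs (red); horizontal lines are means and bars are SD (n = 4), cut at 0. *Gpm6a* lies lower in all 8 red points than in any blue one, *Cnp* lies higher in red within each set of numbers, and *Sox10* has a single point above 0, at 0.35 CPM.

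*Gpm6a* (ENSMUSG00000031517) lies on the plus strand of chromosome 8 of GRCm38, from 54954843 to 55060871. In *GFP*-NSPCs its levels were 748.93, 758.31, 795.68 and 778.79 CPM in numbers 1 to 4 and 514.22, 513.45, 459.67 and 451.13 CPM in numbers 5 to 8. In *Dbx2*-NSPCs they were 244.65, 196.37, 238.69 and 237.89 CPM in numbers 1 to 4 and 121.79, 120.52, 118.28 and 86.77 CPM in numbers 5 to 8. Every *Dbx2*-NSPC sample was thus below every *GFP*-NSPC sample, a separation in the lower direction that 1.81% of all tested genes showed. The means were 628 ± 155 CPM and 171 ± 65.4 CPM (SD, n = 8 each), a 3.83-fold lower level in *Dbx2*-NSPCs with a log2 fold change of -1.94 (SE 0.214, limma adjusted p = 4.86e-06). An exact permutation test, which took all 12870 splits of the 16 values, gave p = 0.000155, the smallest it can give. Its splits ran across the sets of numbers and treated repeat cultures of a line as separate samples. Ranked from the largest decrease, *Gpm6a* was number 78 of the 12533 tested genes.

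Within the sets of numbers the spread of *Gpm6a* was much smaller than over the whole series. In numbers 1 to 4 the means were 770 ± 20.9 and 229 ± 22.2 CPM (SD, n = 4 each), which gave a log2 fold change of -1.75 (SE 0.094, limma adjusted p = 4.92e-07). In numbers 5 to 8 they were 485 ± 33.9 and 112 ± 16.8 CPM, a log2 fold change of -2.12 (SE 0.106, limma adjusted p = 1.23e-08). The decrease was larger in the later numbers by 0.37 on the log2 scale, which did not pass the test of the difference (limma adjusted p = 0.123). The set of numbers itself also mattered for this gene. *Gpm6a* was lower in the *GFP*-NSPC samples numbered 5 to 8 than in those numbered 1 to 4, by a log2 difference of -0.67 (SE 0.103, limma adjusted p = 2.03e-05), in cells without the *Dbx2* transgene. In the same comparison *Dbx2* itself was lower, by a log2 difference of -1.77 (SE 0.165).

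*Gpm6b* (ENSMUSG00000031342), on the plus strand of chromosome X from 166238911 to 166388988, fell less than its paralog. The *GFP*-NSPC levels were 806.14, 648.62, 604.42 and 663.15 CPM in numbers 1 to 4 and 485.41, 541.67, 468.21 and 459.77 CPM in numbers 5 to 8. The *Dbx2*-NSPC levels were 496.05, 486.21, 408.67 and 292.07 CPM in numbers 1 to 4 and 391.05, 433, 372.45 and 366 CPM in numbers 5 to 8. The groups did not overlap within either set, but over all samples they did, because *GFP*-NSPC samples numbered 5 to 8 reached down to 459.77 CPM and *Dbx2*-NSPC samples numbered 1 to 4 up to 496.05 CPM. The means over all samples were 585 ± 120 and 406 ± 66.8 CPM (SD, n = 8 each), 1.43-fold lower in *Dbx2*-NSPCs, with a log2 fold change of -0.52 (SE 0.123, limma adjusted p = 0.00688; exact permutation p = 0.00155). Compared number by number, *Gpm6b* was lower with the transgene in 8 of 8.

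The decrease of *Gpm6b* was -0.72 on the log2 scale in numbers 1 to 4 (SE 0.159, limma adjusted p = 0.0096) and -0.32 in numbers 5 to 8 (SE 0.079, limma adjusted p = 0.00843). These effects differed by 0.39, which did not pass the test of the difference (limma adjusted p = 0.198). As with *Gpm6a*, the control level was lower in numbers 5 to 8, by -0.47 on the log2 scale (limma adjusted p = 0.0064). The call in numbers 1 to 4 was lost when all genes above 0 were kept (adjusted p = 0.0719), and that in numbers 5 to 8 was lost without the intensity trend in limma (adjusted p = 0.0649).

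The ratio of these paralogs within a sample, which does not depend on the scaling between samples, was examined after their levels had been seen. In *GFP*-NSPCs the log2 ratio of *Gpm6a* to *Gpm6b* was close to 0, at 0.0874 ± 0.18 (SD, n = 8), and it ran from -0.106 to 0.396. In *Dbx2*-NSPCs it was -1.33 ± 0.599 and ran from -2.07 to -0.295, below every *GFP*-NSPC sample. The difference was -1.42 over all samples (exact permutation p = 0.000155, the smallest possible), -1.04 in numbers 1 to 4 and -1.8 in numbers 5 to 8. Both paralogs fell, and *Gpm6a* fell further. Over the 16 samples, which share the groups and sets just described, their log2 levels had a Pearson correlation of 0.781 (Spearman 0.838). Once the mean of each group in each set was taken out, Pearson's r was -0.00598. With n = 4 in each group and set, this is too few samples to say whether a relation remained.

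*Cnp* (ENSMUSG00000006782), on the plus strand of chromosome 11 from 100574904 to 100591729, was the gene of the 7 that rose. In *GFP*-NSPCs it was at 104.75, 75.48, 76.9 and 66.32 CPM in numbers 1 to 4 and at 84.23, 73.92, 62.16 and 50.17 CPM in numbers 5 to 8. In *Dbx2*-NSPCs it was at 161.17, 156.3, 167.7 and 133.48 CPM in numbers 1 to 4 and at 129.18, 111.82, 93.9 and 92.51 CPM in numbers 5 to 8. Within each set all *Dbx2*-NSPC samples were above all *GFP*-NSPC samples. Over all samples the ranges overlapped, since *GFP*-NSPC replicate 1 was higher than *Dbx2*-NSPC replicates 7 and 8. The means were 74.2 ± 16.2 and 131 ± 29.6 CPM (SD, n = 8 each), a 1.75-fold increase with a log2 fold change of 0.81 (SE 0.149, limma adjusted p = 8.86e-04; exact permutation p = 0.000622).

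The *Cnp* increase was 0.95 on the log2 scale in numbers 1 to 4 (SE 0.139, limma adjusted p = 8.72e-04) and 0.67 in numbers 5 to 8 (SE 0.153, limma adjusted p = 0.00567). Sample by sample of the same number it ran from 0.62 to 1.12 in numbers 1 to 4 and from 0.59 to 0.88 in numbers 5 to 8, higher in 8 of 8. The difference between the sets was -0.28 (limma adjusted p = 0.503). The call in numbers 5 to 8 was lost when all genes above 0 were kept (adjusted p = 0.0653). The end of *Cnp* overlaps *Dnajc7* on the opposite strand, and the strand used in counting is not given in the sources used here, so reads of this pair may not be told apart. *Dnajc7* averaged 170.8 CPM in *GFP*-NSPCs against 170.04 CPM in *Dbx2*-NSPCs, and its log2 fold change of 0.0043 was not called (limma adjusted p = 0.987).

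**Figure D2:**
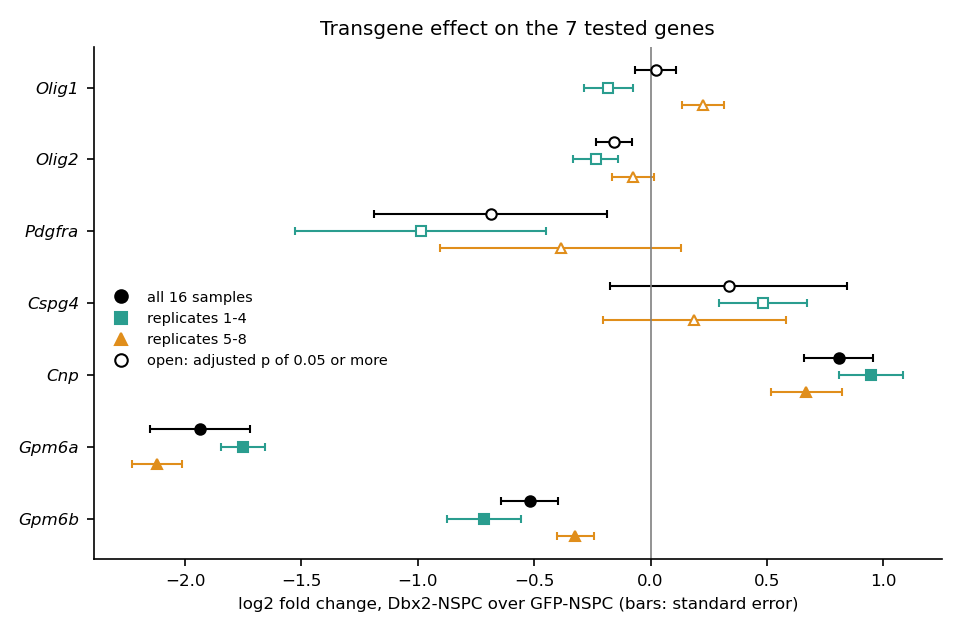
Log2 fold change of *Dbx2*-NSPCs over *GFP*-NSPCs (horizontal axis) for the 7 tested genes, over all 16 samples (circles), in replicates 1 to 4 (squares) and in replicates 5 to 8 (triangles); bars are standard errors from limma and filled symbols have an adjusted p under 0.05. *Gpm6a*, *Gpm6b* and *Cnp* are filled in all 3 comparisons, and *Olig1* lies at -0.18 in replicates 1 to 4 and at 0.22 in replicates 5 to 8.

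The transcription factors of the lineage showed no called change. *Olig2* (ENSMUSG00000039830; chromosome 16, 91225457 to 91228677) and *Olig1* (ENSMUSG00000046160; chromosome 16, 91269772 to 91271933) lie on the plus strand 41094 bases apart, with 1 annotated gene, *Gm37016*, between them. *Olig2* was at 1293.2, 1380.48, 1479.61 and 1443.61 CPM in *GFP*-NSPC numbers 1 to 4 and at 1755.46, 1375.34, 1317.21 and 1323.79 CPM in numbers 5 to 8. In *Dbx2*-NSPCs it was at 1186.98, 1224.33, 1280.05 and 1064.57 CPM and at 1337.52, 1377.91, 1422.53 and 1305.98 CPM in the same sets. The groups did not overlap in numbers 1 to 4, with *Dbx2*-NSPCs lower, and overlapped in numbers 5 to 8. The means over all samples were 1421 ± 149 and 1275 ± 115 CPM (SD, n = 8 each), which gave a log2 fold change of -0.16 (SE 0.078, limma adjusted p = 0.194). The exact permutation test of this gene alone gave p = 0.0315, which is not adjusted for the number of genes. Within the sets the log2 fold change was -0.24 in numbers 1 to 4 (limma adjusted p = 0.131) and -0.07 in numbers 5 to 8 (adjusted p = 0.613, and 0.02 in value without *GFP*-NSPC replicate 5).

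*Olig1* was at 1459.18, 1424.21, 1429.1 and 1673.88 CPM in *GFP*-NSPC numbers 1 to 4 and at 1410.24, 1501.1, 1172.41 and 1118.17 CPM in numbers 5 to 8. In *Dbx2*-NSPCs it was at 1400.16, 1379.42, 1362.11 and 1143.87 CPM in numbers 1 to 4 and at 1524.07, 1508.99, 1517.78 and 1482.22 CPM in numbers 5 to 8. All *Dbx2*-NSPC samples were below the *GFP*-NSPC samples in the earlier numbers, and 3 of 4 were above all of them in the later ones, where the ranges overlapped through *GFP*-NSPC replicate 6. The means over all samples were 1398 ± 178 and 1415 ± 127 CPM (SD, n = 8 each), which gave a log2 fold change of 0.02 (SE 0.087, limma adjusted p = 0.90). This near-zero value was made of -0.18 in numbers 1 to 4 (SE 0.105, limma adjusted p = 0.285) and 0.22 in numbers 5 to 8 (SE 0.091, adjusted p = 0.095).

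The difference between these *Olig1* effects was 0.41 (SE 0.141) and missed the threshold in limma (adjusted p = 0.0729). DESeq2 on the recovered reads called it (adjusted p = 0.0484), and so did limma without *GFP*-NSPC replicate 6 (adjusted p = 0.0355). The effect in numbers 5 to 8 likewise passed with edgeR (adjusted p = 0.0396), with DESeq2 (adjusted p = 0.0433) and without *GFP*-NSPC replicate 6 (adjusted p = 0.0353). Over the 26 alternatives the adjusted p of the difference ran from 0.0355 to 0.161. Of the 7 tested genes, 0 were called for this difference with limma and all samples, where 9.44% of all genes were (4.4% more positive and 5.04% more negative in the later numbers). An unadjusted limma p under 0.05 was reached by 3 (*Olig1*, *Gpm6a* and *Gpm6b*), and by 2705 of all 12533 tested genes. Of the 7, edgeR called 0 and DESeq2 1.

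Set against each other within a sample, the log2 ratio of *Olig1* to *Olig2* was -0.0273 ± 0.199 without the transgene and 0.15 ± 0.0536 with it (SD, n = 8 each), a comparison made after the levels had been seen. Its difference was 0.177 (exact permutation p = 0.0306), 0.0552 in numbers 1 to 4 and 0.299 in numbers 5 to 8. The ranges overlapped in both sets. The log2 levels of the pair correlated over the 16 samples at a Pearson's r of 0.435 (Spearman 0.532), and at 0.566 once group and set means were taken out. The third factor, *Sox10* (ENSMUSG00000033006; chromosome 15, 79154908 to 79165240, minus strand), had 1 read in the whole series, in *GFP*-NSPC replicate 2, and was at 0 in the other 15 samples. A count of 0 allows up to 3 reads, or 0.911 to 1.66 CPM, so *Sox10* was below detection in both groups and no fold change was formed.

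Of the receptors and surface markers of committed progenitors, *Cspg4* (ENSMUSG00000032911; chromosome 9, 56865033 to 56899870, plus strand) was detected in every sample and followed the set of numbers. In *GFP*-NSPCs it was at 34.65, 23.98, 36.49 and 37.66 CPM in numbers 1 to 4 and at 6.1, 8.89, 12.98 and 8.64 CPM in numbers 5 to 8. In *Dbx2*-NSPCs it was at 42.38, 40.37, 40.7 and 63.51 CPM in numbers 1 to 4 and at 4.58, 8.08, 11.74 and 23.63 CPM in numbers 5 to 8. The sets of numbers did not overlap within either transgene, and in *GFP*-NSPCs 13.8% of all genes were separated in this direction. Between the *GFP*-NSPC sets the log2 difference was -1.83 (SE 0.315, limma adjusted p = 8.33e-05), a 3.55-fold lower level in the later numbers.

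The transgene effect on *Cspg4* was not called. Its log2 fold change was 0.34 over all samples (SE 0.511, limma adjusted p = 0.718), 0.48 in numbers 1 to 4 (SE 0.190, adjusted p = 0.111), where all *Dbx2*-NSPC samples were above the *GFP*-NSPC samples, and 0.19 in numbers 5 to 8 (SE 0.394, adjusted p = 0.785). The last value turned to -0.20 without *Dbx2*-NSPC replicate 8.

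*Pdgfra* (ENSMUSG00000029231; chromosome 5, 75152292 to 75198215, plus strand) was near the floor, with 80 reads over all samples and more than 3 reads in 7 of them. In *GFP*-NSPCs it was at 1.61, 4.94, 3.58 and 4 CPM in numbers 1 to 4 and at 1.11, 1.53, 1.02 and 0 CPM in numbers 5 to 8. In *Dbx2*-NSPCs it was at 1.61, 0.91, 0.33 and 5.02 CPM and at 0.35, 0.93, 0.9 and 0 CPM in the same sets. The groups overlapped in both. The log2 fold change was -0.69 over all samples (SE 0.50, limma adjusted p = 0.387), -0.99 in numbers 1 to 4 (adjusted p = 0.253, and -1.50 with adjusted p = 0.0437 without *Dbx2*-NSPC replicate 4) and -0.39 in numbers 5 to 8 (adjusted p = 0.648). Differences at this depth rest on a few reads per sample.

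Between the sets of *GFP*-NSPCs, *Pdgfra* was lower in the later numbers by -1.60 on the log2 scale (SE 0.550, limma adjusted p = 0.0306). This call was lost with a pseudocount of 0.1 (adjusted p = 0.0634), with all genes above 0 kept (adjusted p = 0.0515) and without *GFP*-NSPC replicate 2, 3, 4 or 8 (adjusted p from 0.0642 to 0.129). With *Gpm6a*, *Gpm6b* and *Cspg4*, it made 4 of the 7 tested genes that were lower in the *GFP*-NSPC samples numbered 5 to 8, and 0 were higher, where 28.6% of all genes were called, 13.5% lower and 15.1% higher. *Cnp* (-0.26, adjusted p = 0.212), *Olig1* (-0.21, adjusted p = 0.121, and 0.0491 without *GFP*-NSPC replicate 6) and *Olig2* (0.04, adjusted p = 0.825) made up the rest.

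*Mbp* (ENSMUSG00000041607; chromosome 18, 82475146 to 82585637) had 23 reads in the whole series and was not tested. In numbers 1 to 4 the *GFP*-NSPC samples had 1 read each (0.33 to 0.4 CPM), and the *Dbx2*-NSPC samples were at 0, 1.52, 1.95 and 2.87 CPM. All 8 samples numbered 5 to 8 were at 0. Only *Dbx2*-NSPC replicates 2, 3 and 4 rose above the floor of 3 reads. The increase of *Cnp* was present in numbers 5 to 8 as well, in samples with 0 reads of *Mbp*.

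**Figure D3:**
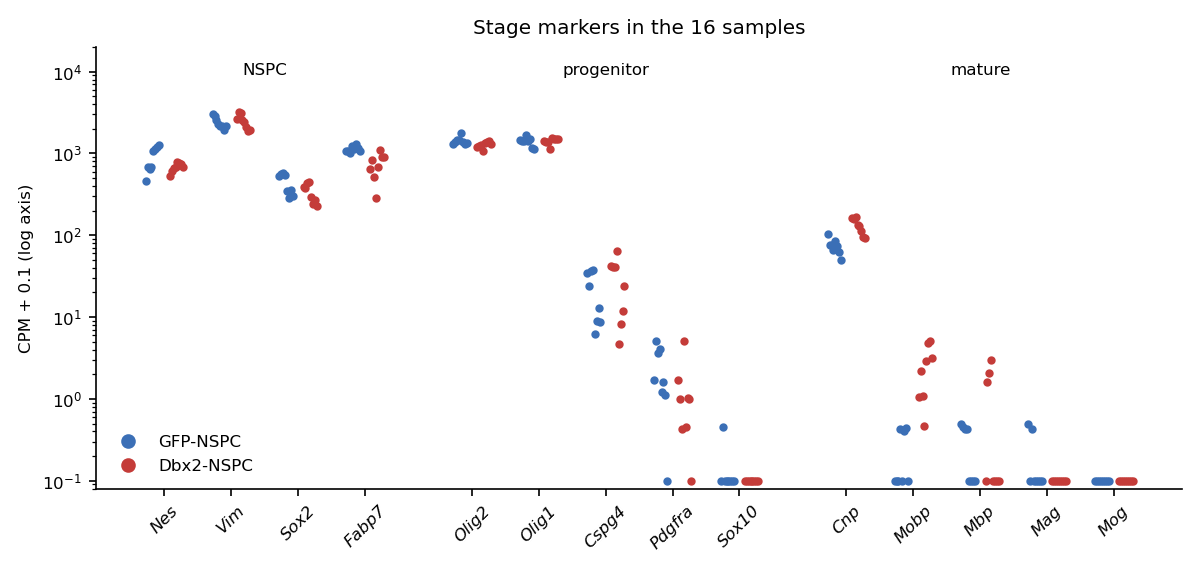
Level (CPM + 0.1, log axis) of markers of NSPCs, of the oligodendrocyte progenitor stage and of the mature stage in the 8 *GFP*-NSPC (blue) and 8 *Dbx2*-NSPC (red) samples, 1 point per sample; points at the bottom are at 0. *Olig1*, *Olig2* and the NSPC markers lie high in all 16 samples, while *Sox10*, *Mag* and *Mog* lie at or near 0.

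The stage of the cells was checked against the rest of the lineage with lists that had been chosen with earlier results of these data known. Of the markers of mature oligodendrocytes, *Mog* was at 0 in all 16 samples and *Mag* in 14. *Mobp*, a myelin protein of the same stage, was at 0 to 0.34 CPM without the transgene and at 0.36 to 4.97 CPM with it, which gave a log2 fold change of 2.06 (SE 0.377, limma adjusted p = 8.17e-04). Within the sets it was called in numbers 5 to 8 (2.73, adjusted p = 1.06e-04) and not in numbers 1 to 4 (1.39, adjusted p = 0.0521), and the difference between them was not called (adjusted p = 0.201). With no *GFP*-NSPC sample above 1 read, the size of this fold depends on the pseudocount of 0.5. *Mobp* passed the filter for testing through *Dbx2*-NSPC samples alone, so that the filter had set its direction. In cultures of mixed cells, a lower share of a cell type and less RNA per cell cannot be told apart in such values.

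Of 23 further genes of oligodendrocyte progenitors, 16 were tested. Over all samples 1 was higher and 4 were lower, where 8.03% and 7.78% of all tested genes were. The median log2 fold change of the list was -0.21 against -0.02 for all tested genes. The gene that rose was *Sox6* (0.85, limma adjusted p = 0.0103), a SoxD factor of progenitors, from 49.1 ± 20.6 to 85.1 ± 22.5 CPM (SD, n = 8 each). Those that fell included the proteoglycan *Vcan* (-1.65, adjusted p = 0.00749), from 6.68 ± 3.13 to 1.70 ± 1.07 CPM, and *Cacng4*, an auxiliary subunit of AMPA receptors (-0.81, adjusted p = 1.03e-04), from 102 ± 18.2 to 58.0 ± 8.36 CPM. *Sox6*, *Vcan* and *Cacng4* were called in the same direction within both sets. *Sox8*, a relative of *Sox10*, fell from 115 ± 22.1 to 83.6 ± 5.81 CPM (-0.43, adjusted p = 0.00805), with a call in numbers 5 to 8 (-0.44, adjusted p = 0.0211) and none in numbers 1 to 4 (-0.43, adjusted p = 0.0725). With the replicate number as a block, or the set of numbers as a covariate, 9 genes of the list passed.

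Within the sets, 2 progenitor genes were higher and 4 lower in numbers 1 to 4, and 4 were higher and 6 lower in numbers 5 to 8. Of all tested genes, 8.19% were higher and 7.37% lower in the earlier numbers, and 11.5% and 11.7% in the later ones. The progenitor total in numbers 1 to 4 fell to 3 without *GFP*-NSPC replicate 3, *Dbx2*-NSPC replicate 2 or *Dbx2*-NSPC replicate 3. The effect differed between the sets for 3 of the 16 genes, 2 more positive and 1 more negative in the later numbers, and for 5 without *GFP*-NSPC replicate 3 or 8. Of all tested genes, 9.44% were called for this difference. *Lhfpl3*, a tetraspan gene of progenitors, had log2 fold changes of -0.16 and 2.16 (adjusted p of the difference 0.00216), and its *GFP*-NSPC level was 33.8 ± 6.54 CPM in numbers 1 to 4 and 2.65 ± 1.57 CPM in numbers 5 to 8 (SD, n = 4 each). *Cspg5*, which encodes the proteoglycan neuroglycan C, had values of -0.53 and 0.53 (adjusted p of the difference 0.0218).

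Of 24 genes of myelin and mature oligodendrocytes, the mature markers included, 12 were tested, and 4 (*Ermn*, *Fa2h*, *Gal3st1* and *Mog*) were at 0 in all samples. Over all samples 2 of the 12 were higher (8.03% of all tested genes were) and 0 lower (7.78% were), with a median of 0.04. Beside *Mobp* this was *Cryab*, a small heat shock protein that astrocytes also make, which rose from 5.96 ± 3.78 to 29.1 ± 22.4 CPM (log2 fold change 2.11, limma adjusted p = 9.99e-04) and was called higher within both sets. With the replicate block 5 genes of the list passed, with the set of numbers as a covariate 6, and without *GFP*-NSPC replicate 7, 4.

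Within the sets, the calls among the 12 myelin genes were as follows. In numbers 1 to 4, 1 was higher and 3 were lower, and in numbers 5 to 8, 5 were higher and 1 was lower. *Nkx6-2* was among the 3 and *Mobp* among the 5, and the filter had favoured these directions. Of all tested genes, 8.19% were higher and 7.37% lower in the earlier numbers, and 11.5% and 11.7% in the later ones. The difference between the sets passed for 5 of the 12 (9.44% of all tested genes passed), of which 4 were more positive in the later numbers. *Enpp2*, which encodes autotaxin, fell in numbers 1 to 4 from 24.9 ± 9.82 to 1.97 ± 1.70 CPM (SD, n = 4 each; log2 fold change -3.61, limma adjusted p = 6.02e-04). In numbers 5 to 8 its means, 0.665 ± 0.874 and 0.268 ± 0.317 CPM, lay below the floor (adjusted p of the difference 0.00647). The highest *GFP*-NSPC value there was 1.84 CPM. For the connexin gene *Gjc3* the decrease lay in numbers 5 to 8, from 7.82 ± 2.96 to 0.828 ± 0.896 CPM (log2 fold change -2.78, limma adjusted p = 2.7e-04), against -0.16 in numbers 1 to 4 (adjusted p of the difference 5.47e-04). *Cd9*, *Car2* and *Ugt8a*, named after their values were seen, were the others. In *GFP*-NSPCs alone, 8 of the 12 were lower in numbers 5 to 8 and 0 were higher. Of all tested genes, 13.5% were lower and 15.1% higher in that comparison. *Cldn11*, *Ugt8a*, *Aspa*, *Myrf*, *Nkx6-2* and *Enpp2*, among the 8, averaged at most 0.665 CPM in the later numbers, below the floor. *Myrf* and *Nkx6-2* needed *GFP*-NSPC numbers 1 to 4 (1.21 to 2 and 1.76 to 4.67 CPM) to pass the filter. The filter thus favoured this direction, and the count is not read as a result. *Cd9* and *Car2* lay above the floor, and their control levels differed between the sets (81.4 against 14.8 and 79.9 against 44.0 CPM).

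**Figure D4:**
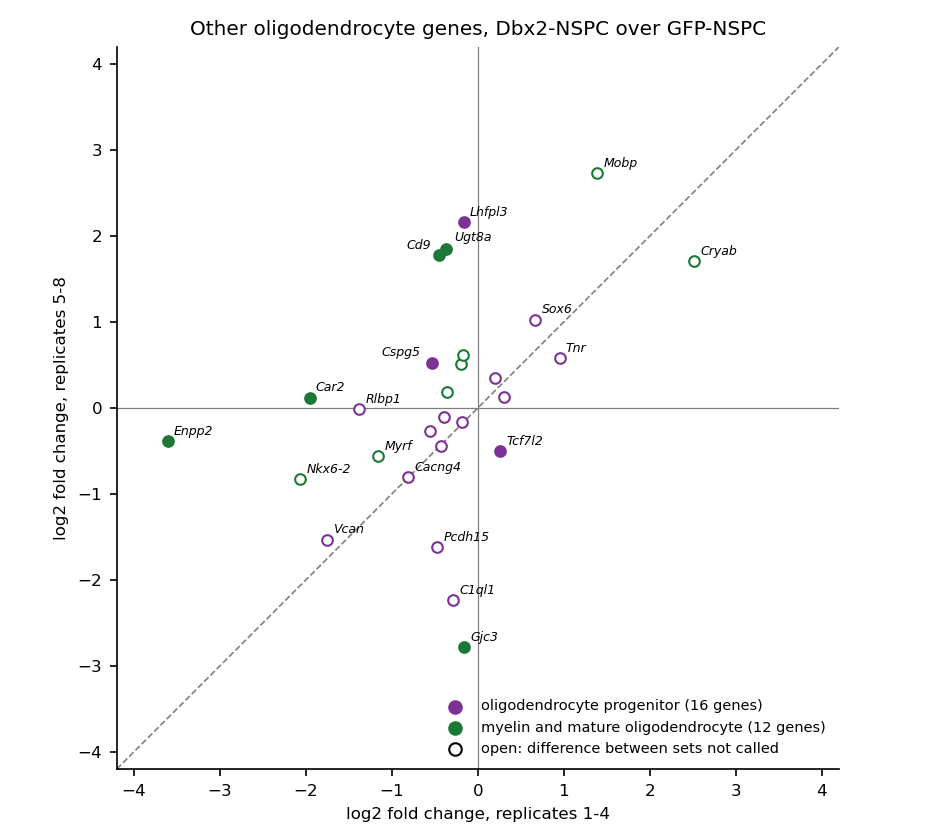
Log2 fold change of *Dbx2*-NSPCs over *GFP*-NSPCs in replicates 1 to 4 (horizontal axis) against replicates 5 to 8 (vertical axis) for the 16 tested progenitor genes (purple) and the 12 tested myelin genes (green); the dashed line marks equal values and filled points have an adjusted p under 0.05 for the difference between the sets. *Vcan*, *Cryab* and *Cacng4* lie near the line, while *Enpp2*, *Gjc3* and *Lhfpl3* lie far from it.

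Of the PDGF system, 2 of the 5 genes beside *Pdgfra* were tested. *Pdgfa*, the ligand that drives the division of oligodendrocyte progenitors, rose from 89.9 ± 26.2 to 131 ± 16.3 CPM (SD, n = 8 each; log2 fold change 0.58, limma adjusted p = 0.0086), with values of 0.53 in numbers 1 to 4 (adjusted p = 0.0854) and 0.64 in numbers 5 to 8 (adjusted p = 0.0138). *Pdgfc* had a log2 fold change of -0.75 (adjusted p = 0.14). The receptor *Pdgfrb* was above 0 in 1 sample.

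Olig1 and Olig2 act with E proteins and are held back by Id and Hes proteins. Of 10 such genes, 9 were tested and *Olig3* was at 0 in all samples. Over all samples 2 were higher and 3 lower, where 8.03% and 7.78% of all tested genes were. The E proteins *Tcf3* and *Tcf12* fell, from 108 ± 24.2 to 63.2 ± 11.1 CPM (log2 fold change -0.76, limma adjusted p = 0.00122) and from 383 ± 76.1 to 260 ± 30.3 CPM (-0.54, adjusted p = 0.00241; SD, n = 8 each). Within the sets both were called in numbers 5 to 8 alone. *Tcf12* had log2 fold changes of -0.22 in numbers 1 to 4 (adjusted p = 0.165) and -0.86 in numbers 5 to 8 (adjusted p = 1.45e-05), and the difference was called (adjusted p = 0.00328). For *Tcf3* the values were -0.53 (adjusted p = 0.073) and -0.98 (adjusted p = 1.14e-04), and the difference was not called (adjusted p = 0.257). The Id genes did not move together. *Id3* fell from 149 ± 47.5 to 78.0 ± 22.0 CPM (-0.94, adjusted p = 0.00649), while *Id1* rose from 17.2 ± 2.21 to 29.9 ± 5.45 CPM (0.77, adjusted p = 3.16e-04) and *Id4* rose from 2.19 ± 1.32 to 4.38 ± 1.63 CPM (0.98, adjusted p = 0.0437). *Id1* was called within both sets. *Id3* was called in numbers 5 to 8 (-1.20, adjusted p = 8.88e-06) and not in numbers 1 to 4 (-0.68, adjusted p = 0.122), and *Id4* in neither (adjusted p = 0.184 and 0.0795). *Hes5*, a target of Notch, had log2 fold changes of -1.30 in numbers 1 to 4 and 0.84 in numbers 5 to 8 (adjusted p of the difference 0.00662), and *Id2* had -0.51 and 0.15 (adjusted p of the difference 0.0427).

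Markers of other cells moved with the transgene too, and their part in the results above was not tested. Of all tested genes, 8.03% were higher and 7.78% lower over all samples. In numbers 1 to 4 the shares were 8.19% and 7.37%, and in numbers 5 to 8 they were 11.5% and 11.7%. Of 9 tested NSPC markers 5 (*Slc1a3*, *Pax6*, *Fabp7*, *Msi1* and *Egfr*) were lower and 0 higher. The summed level of the 10 listed was 5578 to 7159 CPM without the transgene and 4336 to 5966 CPM with it. Of 6 tested astrocyte markers 2 (*Gfap* and *Aldoc*) were higher and 1 (*Aldh1l1*) lower, each also within both sets. In numbers 5 to 8, 4 were higher, with *Aqp4* (1.26, adjusted p = 0.0228) and *Slc1a2* (1.19, adjusted p = 1.47e-06) in addition. In numbers 1 to 4 these had -0.03 and -0.31 and were not called. The effect differed between the sets for *Slc1a2* and for *Aldoc* (0.82 and 2.02 in the order of the sets), with an adjusted p of 2.67e-06 each. The summed level of the 7 listed was 818 to 1120 CPM and 394 to 474 CPM in the *GFP*-NSPC sets, in the order of their numbers, and 783 to 1059 CPM and 896 to 1006 CPM in the *Dbx2*-NSPC sets. *Gjb6*, a defining marker of mature astrocytes, was at 0 in all samples. The 7 neuronal markers, led by *Tubb3*, summed to 16.1 to 44.6 CPM and 15.8 to 45.2 CPM, with *Stmn2* at 0. Over all samples limma called 0 of the 6 tested, with 1 (*Elavl4*) at an unadjusted p under 0.05, but within the sets 3 were lower in numbers 1 to 4 and 2 were higher in numbers 5 to 8. *Dcx* had log2 fold changes of -2.87 and 3.02 in the order of the sets (adjusted p of the difference 3.26e-07) and *Rbfox3* had -1.96 and 2.9 (adjusted p of the difference 3.9e-06), both named after their values were seen. The *Dcx* means without and with the transgene were 4.07 and 0.0825 CPM in numbers 1 to 4, and 0.205 and 4.74 CPM in numbers 5 to 8. Those of *Rbfox3* were 5.56 and 1.05 CPM, and 0.88 and 9.85 CPM. Because 1 side of each fold lay at or near the floor, the sizes rest on few reads and on the pseudocount. Ependymal markers, led by *Foxj1*, summed to 10.3 to 25.8 CPM without the transgene and 21.9 to 44.9 CPM with it, and 2 of 3 tested (*Ccdc153* and *Rarres2*) were higher. Both were called in numbers 1 to 4 (adjusted p = 0.00276 and 0.0148) and not in numbers 5 to 8 (adjusted p = 0.245 and 0.286). Microglial markers summed to at most 1.96 CPM, with *Aif1* and *Tmem119* at 0 throughout and *P2ry12* the most abundant. Fibroblast markers, led by *Col1a1*, summed to at most 3.42 CPM, endothelial markers to at most 18.6 CPM with *Cldn5* and *Cdh5* at 0, and mural markers, led by *Vtn*, to at most 16.4 CPM. *Flt1*, the most abundant endothelial marker, rose over all samples from 1.18 ± 0.874 to 6.84 ± 2.65 CPM (SD, n = 8 each; log2 fold change 2.29, limma adjusted p = 3.47e-04) and within both sets (2.87 and 1.71, adjusted p = 0.00198 and 0.00143). The mural marker *Acta2* was at 1.08 to 5.14 CPM in *Dbx2*-NSPC numbers 1 to 4 and at most 0.41 CPM in every other sample. It passed the filter through those samples alone, which set its direction, and the pseudocount set its size. Its log2 fold change was 2.72 in numbers 1 to 4 (adjusted p = 0.00162) and 1.25 over all samples (adjusted p = 0.112). The adjusted p of the difference between the sets was 0.00455. These values are not read as a result.

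The genes whose levels over the 16 samples were most like those of each member were found among 8645 tested genes of at least 10 CPM on average, by Pearson's r of log2(CPM + 0.5). The samples share the groups, sets and libraries, so these values describe likeness only. *Gpm6a* was most like *Gm13889* (r = 0.98, Spearman 0.97), *Lgr5* (0.97 and 0.96), a Wnt pathway receptor, and *Epha5* (0.96 and 0.94), an ephrin receptor, which had log2 fold changes of -2.29, -2.07 and -3.11. *Gpm6b* was most like *D16Ertd472e* (0.93), the RNA-binding protein gene *Qk* (0.93) and the glutamate dehydrogenase gene *Glud1* (0.93). *Cnp* was most like the mitochondrial carrier *Slc25a18* (0.96), *Pmm1* (0.95) and the lysosomal membrane gene *Lamp1* (0.94). For *Cspg4* they were *1500009C09Rik* (0.93), *Gstz1* (0.92) and *Qdpr* (0.91), and for *Pdgfra* they were *Mvd* (0.88), *Dusp8* (0.87) and *Mrps5* (0.85). For *Olig2* they were *Surf6* (0.90), *Prkci* (0.84) and *Rbx1* (0.83), and for *Olig1* they were *Lix1l* (0.88), *Sdc3* (0.82) and *Trpc4ap* (0.82). No member was among the candidates.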

How the data were processed

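The 16 libraries, each from 100 ng of total RNA, were made with the QuantSeq 3′ kit and read for 101 bases in single-end mode. Per the labels and the study's methods, the authors checked reads with FastQC 0.11.8, trimmed them with bbduk, aligned them with STAR 2.5.0a to GRCm38 (mm10) with Ensembl annotation and used edgeR 3.36 for normalization. The tool that counted reads on genes and its strand setting are not given in the sources used here. The authors deposited CPM for 30386 genes, rounded to 2 decimals; all columns were used (0 left out), and the columns summed to 999484.7 to 999613.8. At least 99.93% of values per sample were whole reads within 0.1 read, and reads were recovered from them.

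The 12533 genes over 1 CPM in 4 or more samples entered limma 3.58.1 (R 4.3.3; lmFit, eBayes with trend, 2-sided) as log2(CPM + 0.5), with Benjamini-Hochberg adjustment over all of them and 0.05 as the threshold. Fold changes on this scale understate the change of low genes. The groups follow the transgene given in the labels, and were compared over all samples, within numbers 1 to 4 and 5 to 8, and as the difference between these sets. The study's cell line covariate could not be fitted, since the labels do not name the line. Single genes were also compared in exact permutation tests over samples (2-sided). The fits were tested on simulated data.

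Same-numbered samples were checked for shared deviations. Their deviations from the group means correlated at 0.152 to 0.303 (8 pairs), and those of different numbers of the same set at 0.124 to 0.286. Within sets the mean was 0.04 for same numbers and -0.0136 for other numbers, and 4 of 8 *GFP*-NSPC samples correlated best with their own number. The paper reports 4 independent experiments per pair of lines, and the labels do not say which samples share an experiment. These small differences do not settle whether the number pairs the samples, and the main fits were not paired. The replicate number of the labels served as a block in an alternative only.

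The members, the gene lists and the tests were chosen with earlier results of these data known. The text names all 9 genes, *Dbx2*, up to 4 called genes per list with the largest fold change and a group mean of 5 CPM or more, up to 2 per list called for the difference between the sets, the most abundant gene of each marker list and the 3 genes most like each member. Further genes that a count of 5 or fewer refers to, genes named for their low levels, *Prom1* and the mature markers were named after their values were seen. Alternatives were pseudocounts of 0.1 and 2, no filter, only genes averaging 10 CPM or more, TMM and median-of-ratios scaling, limma without trend, the replicate block, the set of numbers as a covariate, each sample left out, and count models on the recovered reads (edgeR 4.0.16, DESeq2 1.42.0). A gene on the myelin list is not reported here. Positions came from GENCODE M21 and promoters from RefSeq.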

Additional observations from a re-analysis of the deposited data

Results flagged for a closer look

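Samples far from the others of their group were searched for in 43 groups of 4 or 8 samples, by the gap to the nearest sample relative to the range (Dixon's criterion). It was exceeded 9 times. Chance alone exceeds it in about 1 of 20 groups, and the groups of 8 share samples with those of 4.

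*Dbx2*-NSPC replicate 4 stood apart for 3 genes. It was the highest of the 8 *Dbx2*-NSPC samples for *Pdgfra*, at 5.02 CPM, and the highest of numbers 1 to 4 for *Cspg4*, at 63.51 CPM. For *Olig1* it was the lowest, at 1143.87 CPM, both among all 8 and among numbers 1 to 4. Without it *Pdgfra* was called lower in numbers 1 to 4, as given above. The same numbered sample of the other group, *GFP*-NSPC replicate 4, was the highest of numbers 1 to 4 for *Olig1*, at 1673.88 CPM. For *Olig2*, *GFP*-NSPC replicate 5 was the highest of all 8 and of numbers 5 to 8, at 1755.46 CPM.

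For *Gpm6a*, *Dbx2*-NSPC replicate 2 was the lowest of numbers 1 to 4, at 196.37 CPM, and replicate 8 the lowest of numbers 5 to 8, at 86.77 CPM. Both lay in the direction of the group difference, and leaving out any 1 sample kept *Gpm6a* called over all samples and in both sets.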

How the results depend on the processing

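The calls of *Gpm6a*, *Gpm6b* and *Cnp* over all 16 samples kept their direction and passed the threshold under all 28 alternatives, with log2 fold changes from -2.02 to -1.81, from -0.57 to -0.45 and from 0.73 to 0.88. Over single members and comparisons, 343 of 352 values other than those leaving out a sample kept their direction and side of the threshold, 4 passed it in addition and 5 no longer passed. With a sample left out, 377 of 392 did, 4 passed in addition, 4 no longer passed and 7 uncalled values changed sign. The latter, with the range over all samples left out, were *Olig1* over all samples (-0.023 to 0.065, below 0 without *GFP*-NSPC replicate 7, at -0.013, or 8), *Olig2* in numbers 5 to 8 (-0.115 to 0.023, above 0 without *GFP*-NSPC replicate 5), *Cspg4* in numbers 5 to 8 (-0.205 to 0.544, below 0 without *Dbx2*-NSPC replicate 8), the *Cspg4* difference between the sets (-0.687 to 0.062, above 0 without *Dbx2*-NSPC replicate 5), and *Olig2* between the *GFP*-NSPC sets (-0.062 to 0.076, below 0 without replicate 1, at -0.00157, or 5). The replicate block gave 2723 called genes in place of 1982 over all samples and changed no call of a member (*Gpm6a* adjusted p = 1.12e-08, *Cnp* 2.44e-05, *Gpm6b* 0.00131). The count over all genes rose to 3034 with the set of numbers as a covariate. In numbers 1 to 4 it was 1950, and 1299 without the filter and from 1286 to 2209 with a sample left out, the lowest without *GFP*-NSPC replicate 3. The number of members called for the difference between the sets was 1 with DESeq2 and from 0 to 1 with a sample left out, the 1 being *Olig1* without *GFP*-NSPC replicate 6. *Sox10* and *Mbp* were limited by depth, as was *Pdgfra*, at 80 reads in all. The causes of these changes were not tested.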
